A study of Mus musculus with 8 samples.

Results

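The sequences described here were the 26-nt and 27-nt small RNAs that began with U in mouse primordial germ cells (mPGCs) and in primordial germ cell-like cells (mPGCLCs) made in culture. In each library, a sequence of that length whose first base was U was a member, unless its first 18 nt lay in a miRNA transcript of the GENCODE mouse annotation. Over 8 libraries, 326789 of 2137470 distinct sequences were members. A further 1335 sequences of the same length and first base were left out as miRNA matches.

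Male mPGCs of 3 embryonic stages (E12.5, then E13.5, then E15.5) came from mice with the GOF18 transgene, an EGFP reporter under Pou5f1 control, which every mPGC library carried. They were sorted by EGFP according to the study's methods, while the labels name antibodies to SSEA1 and CD61. Their strain is labelled C57BL/6J, while the study's methods give a mixed FVB/C57BL/6J background for these ages. Each mPGC replicate pooled 2 embryos and the replicates came from different litters. The mPGCLCs were sorted after 6 days of differentiation from SGET, 1 male embryonic stem cell line of B6CBA/129 background with Stella-GFP and Esg1-tdTomato reporters, and no label says that its 2 libraries came from separate differentiations. Each of the 4 groups had 2 libraries, and a library held between 7447873 and 26552524 mapping reads.

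The labelled cell types were checked by marker miRNAs. The 10 Mir290 to Mir295 and Mir302 family genes of pluripotent and early germ cells took between 4.32% and 11.3% of reads in the 6 libraries of the other groups, but less in the E15.5 libraries, 0.457% and 0.328%. In those 6 libraries Mir292 alone took between 3.01% and 7.91%. Each Mir302 gene took at most 0.0061% in any mPGC library and up to 0.0873% in SGET mPGCLCs. The 8 markers of blood, vessel, gonadal soma, muscle and liver together took between 0.00733% and 0.0574% of reads in every library. Mir202, the marker of gonadal soma, was the largest of them in every mPGC library, with up to 0.0496%, and had 0 counts in SGET mPGCLCs.

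PIWI-interacting RNAs (piRNAs) are small RNAs that guide PIWI proteins to transposon and other transcripts in the germ line. In the fetal mouse testis, MILI (PIWIL2) carries the shorter piRNAs and MIWI2 (PIWIL4) the longer ones, and primary piRNAs most often begin with U. In the ping-pong cycle, a transcript cut by a piRNA yields a new piRNA from the opposite strand, and the first 10 nt of both pair, so a partner of a 5′-U piRNA carries A at position 10. All small RNAs were sequenced without precipitation of a PIWI protein, so binding to MILI was not measured.

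The 5 members with the highest mean share of reads at E15.5, among those with at least 10 counts in both libraries, are shown as the leading sequences of that stage. They are written as DNA, from 5′ to 3′, with the bases at positions 1 and 10 in capitals.
E15.5 member 1: TagagcacaTgataggaggggtaaag
E15.5 member 2: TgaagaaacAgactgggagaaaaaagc
E15.5 member 3: TactgttagAggattaaaagggtgga
E15.5 member 4: TagtagagaGagaagggtgggactta
E15.5 member 5: TggtaatatCtggtgttgtctctggct
All 5 had a purine at position 2, 2 of 5 had A at position 5 and 2 of 5 had A at position 10. None of the 5 matched a GENCODE transcript on either strand.

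E15.5 member 1 had 819 and 6246 counts in the E15.5 libraries, 0 and 257 in E13.5 mPGCs, and 0 in the E12.5 and SGET libraries. E15.5 member 2 had 394 and 6997 counts in E15.5 mPGCs, 0 and 609 in E13.5 mPGCs, and 0 elsewhere. E15.5 member 3 had 1520 and 3817 counts in E15.5 mPGCs and 649 and 466 in E13.5 mPGCs, and was again at 0 in E12.5 mPGCs and in SGET mPGCLCs. These 3 had reads in at least 1 E13.5 library, whereas the next 2 had 0 to 2 counts there. E15.5 member 4 had 238 and 6180 counts in E15.5 mPGCs and 0 in the other 6 libraries. E15.5 member 5 had 2124 and 2295 counts in E15.5 mPGCs and 0 and 2 in E13.5 mPGCs. E15.5 member 1 took 0.0148% ± 0.0124 of reads (SD, n = 2), a spread nearly as large as its mean. A count of 0 allowed a share of up to 4.0e-05% of reads in the shallowest library.

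The leading members of the other groups were of another kind. The next 4 sequences are shown because they led at E12.5, at E13.5 or in SGET mPGCLCs, with positions 1 and 10 in capitals as above.
Rny1 fragment: TtctcactaCtgcacttgactagtctt
Rny1 fragment with another last base: TtctcactaCtgcacttgactagtcta
Snhg1 snoRNA fragment: TgcaatgatGtcatcttactactgaaa
SGET leading member: TtcccgctcCccgttcctcccgacccc
The first matched Rny1, a Y RNA that binds the Ro60 protein, at chr6:47788071-47788097 (GRCm38), in the exon of a noncoding transcript. Its counts were 2133 and 4168 in E12.5 mPGCs, 2442 and 6504 in E13.5 mPGCs, 187 and 72 in E15.5 mPGCs, and 7254 and 3885 in SGET mPGCLCs. As a share of reads this was 0.0296% ± 0.0014 in E12.5 mPGCs, 0.0266% ± 0.0090 in E13.5 mPGCs and 0.00082% ± 0.00078 in E15.5 mPGCs (SD, n = 2), and the E15.5 libraries lay below all others. The sequence with A as its last base shared 26 nt with Rny1 and matched no transcript over its whole length. The snoRNA fragment matched Gm24452, a snoRNA inside the host gene Snhg1, at chr19:8724574-8724600. It had 462 and 3590 counts in E12.5 mPGCs and 448 and 1538 in E15.5 mPGCs. The SGET leading member had 11147 and 2478 counts there and between 0 and 19 in the mPGC libraries, and it matched no transcript.

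Members took a small share of reads at E12.5, a larger one at E13.5 and close to 1 read in 3 at E15.5. The share of mapping reads was 0.439% and 0.542% in E12.5 mPGCs, 2.66% and 3.95% in E13.5 mPGCs, 31.3% and 30.4% in E15.5 mPGCs, and 0.700% and 0.441% in SGET mPGCLCs. The mPGC stages did not overlap, and the SGET libraries stood with E12.5. Within a library the 95% Wilson interval was narrow, for example 0.435% to 0.444% in the first E12.5 library and 31.2% to 31.3% in the first E15.5 library. These intervals cover counting error only, because PCR copies are not independent molecules.

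The 26-nt and 27-nt members were then tested as 2 of 56 classes of length (20 to 33 nt) by first base, with edgeR's quasi-likelihood test and Benjamini-Hochberg adjustment over the classes. Between E12.5 and E13.5 the 26-nt members rose by 2.70 ± 0.33 on the log2 scale (estimate ± SE, adjusted p = 0.00132) and the 27-nt members by 2.79 ± 0.37 (adjusted p = 0.00132). Of the 56 classes, 6 were called higher and 0 lower in that comparison (10.7% in either direction). Between E13.5 and E15.5 the rise was 3.39 ± 0.34 for 26 nt (adjusted p = 6.24e-05) and 3.08 ± 0.37 for 27 nt (adjusted p = 0.000105), beside 27 classes called higher and 16 lower (76.8% in either direction). These values are relative to all mapping reads. Set against only the reads of 24 to 33 nt that matched no miRNA, the step to E15.5 was 0.79 for 26 nt (adjusted p = 0.0403) and 0.52 for 27 nt (adjusted p = 0.154), so the call for 27 nt was lost.

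Between SGET mPGCLCs and E12.5 mPGCs no difference passed the test, and the intervals allow a difference in either direction. The log2 difference was 0.14 (95% interval -0.57 to 0.84) for 26 nt and 0.28 (-0.50 to 1.07) for 27 nt, with an adjusted p of 0.899 for each in the edgeR fit. Of the 56 classes, 0 (0%) passed in either direction in that comparison. Against E13.5 mPGCs the SGET members were lower, with a log2 difference of -2.56 ± 0.33 for 26 nt (adjusted p = 0.00217) and -2.51 ± 0.36 for 27 nt (adjusted p = 0.00249), beside 7 classes called lower and 1 called higher (14.3% in either direction). This comparison shares the E13.5 libraries with those above.

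The length limits did not mark a break in the data. At E15.5 the 5′-U sequences of 25 nt took 8.12% and 7.49% of reads and those of 28 nt took 11.6% and 12.4%, beside 15.51% and 14.58% for 26 nt and 15.7% and 15.9% for 27 nt. At E12.5 the 25-nt and 28-nt sequences took between 0.249% and 0.311%, and each member length between 0.196% and 0.295%. Of all 26-nt and 27-nt reads outside miRNAs, 81.1% and 81.8% began with U at E15.5 and 71.4% and 71.0% in E13.5 mPGCs. At E12.5 this was 24.2% and 27.8%, and in SGET mPGCLCs 33.7% and 24.5%. The miRNA filter also acted unequally: it removed 40.8% and 51.3% of the 26-nt and 27-nt 5′-U reads at E12.5, 11.7% and 14.0% in E13.5 mPGCs, 0.372% and 0.401% in E15.5 mPGCs, and 19.3% and 26.8% in SGET mPGCLCs. Reads of 26 nt made up between 41.8% and 49.6% of member reads, so 27 nt was the more frequent length in all 8 libraries.

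The number of different members was larger at each later stage. After each library was drawn down to the 7447873 reads of the smallest, 1166 and 1752 distinct members remained at E12.5, 6432 and 13590 in E13.5 mPGCs, 166629 and 39156 in E15.5 mPGCs, and 1262 and 899 in SGET mPGCLCs. The ratio of group means was 6.86 for E13.5 over E12.5, 10.3 for E15.5 over E13.5 and 0.108 for SGET mPGCLCs over E13.5, and the groups did not overlap in these 3 comparisons. For SGET mPGCLCs over E12.5 the ratio was 0.741 and the groups overlapped. With single libraries left out, the ratios ran from 4.41 to 9.31, from 3.91 to 16.6, from 0.0795 to 0.168 and from 0.616 to 0.927 in this order. For E15.5 over E13.5 the ratio was 3.91 without the first E15.5 library and 16.6 without the second. Without the second E13.5 library it was 15.997, and the ratios of E13.5 over E12.5 and of SGET mPGCLCs over E13.5 were then 4.41 and 0.168. With 2 libraries against 2 an exact permutation test, taken on both sides, has 0.333 as its smallest p, so no difference of this kind could pass 0.05.

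Counts per member were split into rare and abundant sequences. Members seen once made up 61.2% and 51.6% of members in E12.5 mPGCs, 71.8% and 36.4% in E13.5 mPGCs, 50.7% and 51.5% in E15.5 mPGCs and 67.5% and 71.0% in SGET mPGCLCs. They held between 0.535% and 2.61% of member reads. Members with at least 10 counts held between 96.0% and 98.4% of member reads. There were 347 and 742 of them in E12.5 mPGCs, 1412 and 8895 in E13.5 mPGCs, 92715 and 9525 in E15.5 mPGCs, and 228 and 126 in SGET mPGCLCs. These numbers were not drawn down to equal depth. The second E15.5 library was thus close to the second E13.5 library, although it was deeper (26552524 against 19734948 mapping reads). In 7 of the 8 libraries, between 71.2% and 81.3% of the members seen once differed by 1 base from a sequence of the same length with at least 10 counts, and in the second E12.5 library 30.2% did. For that reason the properties below were also taken over members with at least 10 counts.

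The 2 E15.5 libraries spread the same share of reads over very different numbers of sequences. The abundant members had a median count of 35 in the first and 668 in the second. In the second, 3456 members with at least 1000 counts held 66.0% of member reads, against 9 members and 0.305% in the first. It took 24188 members to reach 50% of member reads in the first library and 2284 in the second. SGET mPGCLCs stood at the other extreme, where the 10 most abundant members held 45.9% and 33.97% of member reads. PCR duplication was not measured for either library, and its part in this was not tested.

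Few members recurred between libraries. Of all members, 318761 were found in 1 library, 6827 in 2 and 5 in all 8. The E15.5 libraries shared 3571 members, which were 1.63% of those in the first and 4.26% of those in the second and held 4.18% and 15.2% of their member reads. Among abundant members, the E15.5 libraries shared 1095, which were 1.18% and 11.5%. The 5 members found everywhere held 10.6% and 15.04% of member reads for E12.5, 14.6% and 17.8% for SGET mPGCLCs, but 0.0156% and 0.0206% in E15.5 mPGCs. The second E12.5 library also held 428 members with fewer than 10 counts that had at least 100 counts in the second E15.5 library. These were 17.9% of its members and 0.663% of its member reads, and the matching number in the first E12.5 library against the first E15.5 library was 25. The second E13.5 library held 536 such members against the second E15.5 library, 2.84% of its members and 0.0817% of its member reads. Against the first E15.5 library it held 48, and the first E13.5 library held 26. How such members came into the second E12.5 and second E13.5 libraries was not tested. The values of both libraries over all distinct members include them.

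At positions 2 and 5, E13.5 and E15.5 members held A more often than those of E12.5 and SGET mPGCLCs. Each distinct member was counted once. At position 2, A or G was usual and C rare in the later stages. A stood there in 35.0% ± 0.52 of members in E13.5 mPGCs and 33.9% ± 1.2 in E15.5 mPGCs, against 21.2% ± 1.1 in E12.5 mPGCs and 18.1% ± 1.9 in SGET mPGCLCs (SD, n = 2). C stood there in 12.47% ± 0.27 in E13.5 mPGCs and 12.54% ± 0.34 in E15.5 mPGCs, against 18.5% ± 1.7 in E12.5 mPGCs and 24.5% ± 1.5 in SGET mPGCLCs. At position 5, A was found in 38.3% and 38.4% of members in E13.5 mPGCs and in 39.1% and 38.1% in E15.5 mPGCs. No other position from 2 to 25 had a higher percent of A in these 4 libraries, and the next highest was position 2. At E12.5 position 5 held A in 25.4% and 30.7% of members and in SGET mPGCLCs in 23.8% and 29.3%. Among abundant members, position 5 held A in 37.6% and 39.2% in E13.5 mPGCs and in 38.0% and 39.3% in E15.5 mPGCs, against 24.8% in the second E12.5 library. Sequences of the same lengths without 5′ U also held more A at the later stages. Their means at position 2 were 26.2% for E12.5, 32.5% for E13.5, 39.4% for E15.5 and 29.2% for SGET mPGCLCs, and at position 5 they were 24.2%, 30.1%, 37.2% and 26.4%.

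A at position 10, the base that a ping-pong partner of a 5′-U sequence carries, was counted over distinct members and by reads. It was found in 22.3% and 22.9% of members in E12.5 mPGCs, 25.3% and 24.1% in E13.5 mPGCs, 28.003% and 28.4% in E15.5 mPGCs, and 14.2% and 18.1% in SGET mPGCLCs. E15.5 exceeded E13.5 by 3.51 percentage points and E13.5 exceeded E12.5 by 2.11, without overlap, and the exact permutation test gave the smallest p it can give, 0.333, for each. The step from E12.5 to E13.5 was 0.96 points among abundant members, where the groups overlapped. Weighted by reads, A stood there in 17.9% and 17.4% in E12.5 mPGCs, 23.5% and 23.9% in E13.5 mPGCs, 27.2% and 27.6% in E15.5 mPGCs and 7.69% and 14.3% in SGET mPGCLCs, and the step from E12.5 to E13.5 was 6.07 points. At E15.5 the percent at position 10 was 2.47 and 3.94 points above the positions beside it. The same difference was 0.62 and -0.39 points at E13.5, so A at position 10 did not stand out there. At E12.5 it was -1.29 and -2.07 points, and in SGET mPGCLCs -4.36 and -3.41. In 26-nt and 27-nt sequences of the same libraries that did not begin with U, A at position 10 reached 41.4% and 42.2%, which was 14.5 and 15.1 points above the positions beside it. At E13.5 those sequences had 27.97% and 25.8%.

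At the 3′ end the members of E13.5 and E15.5 had few alternative forms. A 27-nt member whose first 26 nt were also a member of the same library was called a member with a 26-nt form. At equal depth, 9.58% and 8.70% of 27-nt members had one at E12.5, 2.53% and 5.20% in E13.5 mPGCs, 4.90% and 2.11% in E15.5 mPGCs, and 14.6% and 11.4% in SGET mPGCLCs. The E13.5 libraries lay below both E12.5 and SGET mPGCLCs without overlap, and the E13.5 and E15.5 libraries overlapped. The difference was -5.27 percentage points for E13.5 minus E12.5 and 9.14 for SGET mPGCLCs minus E13.5 (exact permutation p = 0.333 for each). Weighted by reads the same differences were -30.9 and 39.5 points. At full depth, 3′ ends shared by a 27-nt member and a 26-nt sequence that started 1 nt further on were also counted. In every library they were rarer than 26-nt forms counted at the same depth. That 26-nt sequence could begin with any base, so it need not be a member. Such a sequence was found for 0.235% and 1.18% of 27-nt members at E13.5 and for 0.983% and 0.539% in E15.5 mPGCs. This compares with 6.39% and 4.44% in E12.5 mPGCs and 9.88% and 3.34% in SGET mPGCLCs.

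Reads of any length that shared the first 20 nt of a member were also counted. Of those between 24 and 33 nt, reads of 26 nt made up 17.5% and 19.9% in the E12.5 libraries, 39.7% and 31.2% in E13.5, 40.7% and 41.8% in E15.5 and 21.4% and 17.4% in SGET. Reads of 27 nt made up 21.7% and 23.8% in the E12.5 libraries, 46.3% and 43.6% in E13.5, 41.3% and 45.4% in E15.5 and 29.4% and 22.8% in SGET. Both lengths were more frequent in every E13.5 and E15.5 library than in any E12.5 or SGET library. Since a member end must hold a 26-nt or 27-nt read, some excess at these lengths is fixed by the choice of members.

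The 3′ forms of the 3 leading 5′ ends of E15.5 that held both lengths show what these variants look like. Bases after position 25 are in capitals.
Noct end, 26 nt: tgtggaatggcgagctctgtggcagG
Noct end, 27 nt: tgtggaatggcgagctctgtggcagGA
Noct end, other last base: tgtggaatggcgagctctgtggcagT
end of E15.5 member 2, 27 nt: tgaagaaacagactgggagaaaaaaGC
end of E15.5 member 2, 26 nt: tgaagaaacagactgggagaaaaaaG
end of E15.5 member 1, 26 nt: tagagcacatgataggaggggtaaaG
end of E15.5 member 1, 27 nt: tagagcacatgataggaggggtaaaGA
end of E15.5 member 1, 27 nt with T: tagagcacatgataggaggggtaaaGT
The first end lies at chr3:51241484-51241510 (GRCm38), in the 5′ UTR of Noct, the gene for the circadian protein nocturnin. It is not unique, because the same sequence also lies in Gm37917 on chromosome 9. Its 26-nt form had 684 and 4576 counts in E15.5 mPGCs and its 27-nt form 217 and 4612, so the longer form was the rarer one in the first library and not in the second. The form ending in T, which matched no transcript over its whole length, had 596 and 1140 counts. For E15.5 member 2, the 27-nt form had 394 and 6997 counts and the 26-nt form 280 and 1725. For E15.5 member 1, the 26-nt form had 819 and 6246 counts and the 27-nt form ending in A 73 and 1210, while the form ending in T had 164 counts in the first library and 0 in the second. These 3 ends carried 18, 17 and 18 members each over all libraries. Not all of these were 3′ forms, since some at the end of E15.5 member 2 differed from it at or before position 25.

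Members were next matched, without mismatch and on both strands, to 141767 GENCODE transcripts. Of all 326789 members, 29652 (9.07%) matched one. Among abundant members the share that matched differed by group: 36.9% and 39.9% in E12.5 mPGCs, 57.6% and 61.2% in E13.5 mPGCs, 20.3% and 18.4% in E15.5 mPGCs, and 34.6% and 34.1% in SGET mPGCLCs. No genome sequence was used here, so the unmatched members were not placed, and repeats, introns, nuclear tRNAs and the ribosomal precursor could not be told apart among them.

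At E13.5, abundant members came in the main from the sense strand of protein-coding genes. This class held 50.8% and 53.9% of them, against 19.3% and 18.6% in E12.5 mPGCs, 12.3% and 10.6% in E15.5 mPGCs, and 10.1% and 5.56% in SGET mPGCLCs. Over all members, rare ones included, it held 8.58% and 27.1% at E13.5. By reads it held 52.6% and 50.8% of the reads of abundant members at E13.5 and 12.51% and 12.74% in E15.5 mPGCs. As a share of all mapping reads the class took 1.36% and 1.97% in E13.5 mPGCs and 3.75% and 3.82% in E15.5 mPGCs. In 26-nt and 27-nt sequences without 5′ U the class held 31.7% and 34.6% of abundant sequences at E13.5 and 10.97% and 9.10% in E15.5 mPGCs.

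Fragments of structured small RNAs took larger shares of abundant-member reads in the E12.5 and SGET libraries than in the E13.5 and E15.5 libraries. Abundant members from rRNA, mitochondrial tRNA, snoRNA, snRNA and other small noncoding RNA genes held 17.6% and 23.98% of abundant-member reads for E12.5, and 22.3% and 26.5% for SGET mPGCLCs. They held 2.05% and 2.70% in E13.5 mPGCs and 0.128% and 0.230% in E15.5 mPGCs. As a share of all mapping reads they took 0.0749% and 0.126% in E12.5 mPGCs, 0.0528% and 0.104% in E13.5 mPGCs, 0.0384% and 0.0688% in E15.5 mPGCs and 0.152% and 0.113% in SGET mPGCLCs, where E12.5 overlapped E13.5 and E13.5 overlapped E15.5. Long noncoding RNAs held between 3.04% and 7.14% of abundant members in every library.

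The strand of the matches differed between E13.5 and E15.5. Over abundant members that matched genes other than small noncoding RNAs, 90.9% and 91.2% matched the sense strand alone at E13.5 and 4.13% and 4.03% the antisense strand alone. At E15.5 these were 71.7% and 72.2% sense and 21.7% and 21.4% antisense. At E12.5 the antisense strand alone held 3 of 89 and 30 of 218 members and in SGET mPGCLCs 6 of 44 and 6 of 22, too few for a firm share.

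Within protein-coding genes the E13.5 and E15.5 members lay along the messenger RNA roughly as its parts divide its length. Over abundant members that matched 1 protein-coding gene, 62.8% and 60.2% lay in 3′ UTRs at E13.5, where the 3′ UTR was on average 57.9% and 56.2% of the transcript. At E15.5 61.8% and 61.7% lay in 3′ UTRs that made up 59.5% and 60.1%. Coding exons held 31.7% and 35.0% in E13.5 mPGCs against 35.1% and 37.0% of length. At E12.5, over 47 and 98 members, 3′ UTRs held 57.4% and 54.1% against 43.99% and 41.5% of length, and coding exons 38.3% and 34.7% against 48.6% and 49.5%. In 26-nt and 27-nt sequences without 5′ U, 3′ UTRs held 37.9% and 31.2% at E12.5, against 39.8% and 37.8% of length. For such sequences at E13.5 it was 45.7% and 50.4%, against 47.5% and 46.5%.

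The base just after the 3′ end in the transcript was also read, since piRNAs cut one behind the other are often followed by U. Over members with a sense match to 1 gene, U stood there in 23.1% and 23.3% in E15.5 mPGCs, against an average of 24.8% and 24.5% over the next 9 positions. At E13.5 it was 26.9% and 25.1% against 25.5% and 25.9%, so U was not more frequent there in 3 of these 4 libraries. The number of member 3′ ends followed directly by the 5′ end of another member was 121 and 3 in E15.5 mPGCs, against averages of 135 and 6.13 at distances of 2 to 25 nt. In E13.5 mPGCs it was 4 and 19, against averages of 1.33 and 27.3. These 3′ ends were counted as positions on genes, so a member on several genes could count more than once.

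At E15.5, opposite-strand overlaps of 10 nt were more frequent than other overlaps, but found for only 3.91% and 1.43% of member 5′ ends. On the longest transcript of each gene, the 5′ end of each member was compared with 5′ ends of 26-nt to 29-nt sequences on the other strand. A member that matched several genes was counted on each, so the numbers are positions on genes and can repeat a sequence. In the first E15.5 library, 20990 distinct members matched genes other than small noncoding RNAs. In the first E15.5 library, 1062 of 27186 member 5′ ends had a partner with an overlap of 10 nt, against an average of 420.5 over the other overlaps from 1 to 25 nt and at most 652, at 21 nt. In the second, 58 of 4069 had one, against an average of 13.0 and at most 28. At E13.5 none of the 1223 and 7678 member 5′ ends had a partner at 10 nt. Other overlaps at E13.5 averaged 0 and 1.54, where antisense members were also few. At E12.5 and in SGET mPGCLCs no partner was found at 10 nt among 83 to 782 member 5′ ends.

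The arrangement is shown by 2 pairs from Gm43305, a gene on chromosome 14 annotated as a processed transcript. They were chosen after their values were seen, as the pairs within 1 gene whose rarer sequence was most abundant at E15.5. The first 10 bases, which pair between the partners, are in capitals.
pair 1, sense: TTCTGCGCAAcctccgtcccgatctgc
pair 1, antisense: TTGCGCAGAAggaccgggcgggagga
pair 2, sense: TCAGGAGAGAaacagaggaaaaagaag
pair 2, antisense: TCTCTCCTGAtacgttcctctctttcttc
The sense sequence of pair 1 lies at chr14:54296471-54296497 on the minus strand (GRCm38) and its partner at chr14:54296488-54296513 on the plus strand. Both are members. All 4 sequences have A at position 10, which follows from the choice of pairs, because that base pairs with the first U of the partner. The sense sequence had 43 and 1428 counts in E15.5 mPGCs and its partner 155 and 4060. In the other libraries the sense sequence was at 0 and the partner had 2 counts in the second E12.5 library. Pair 2 lies at chr14:54295500-54295526 and chr14:54295517-54295545, and its antisense sequence is 29 nt long and so not a member. Its counts were 126 and 1386 for the sense and 73 and 1318 for the antisense sequence at E15.5. Over the E15.5 libraries there were 424 such pairs within 1 gene, in 63 genes, and in 42 pairs both sequences were members.

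Members were spread over many genes. At least 1 member lay on the sense strand of 7456 and 1950 genes at E15.5, 783 and 3216 in E13.5 mPGCs, 133 and 495 in E12.5 mPGCs, and 56 and 41 in SGET mPGCLCs. At E15.5 the shares of the 10 leading genes added up to 3.37% and 4.17% of member reads on the sense strand. A read that matched several genes counted for each of them, so together these genes held less than that.

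One gene, D10Wsu102e, a protein-coding gene at chr10:83360221-83488505, had the highest mean share of the E15.5 libraries on both strands. Its sense members took 0.437% and 0.432% of all reads at E15.5, 0.0735% and 0.0849% in E13.5 mPGCs, and at most 0.00013% in E12.5 mPGCs. There were 1270 and 155 different ones at E15.5 and 48 and 223 in E13.5 mPGCs. Antisense members took 0.0653% and 0.125% in E15.5 mPGCs and at most 0.0027% in E13.5 mPGCs. In the first E15.5 library the antisense share lay below those of Gm42047, 0.0827%, and Gm47939, 0.0661%. Sense members were thus present in both E13.5 libraries, with far fewer antisense reads. Of the sense reads at E15.5, 94.6% came from members that matched no other gene, and of the antisense reads 59.7%. Its leading sense members are shown with positions 1 and 10 in capitals.
D10Wsu102e sense 1: TagggcagtGgcgcagaaggtagagg
D10Wsu102e sense 2: TgatactggGtcagggatcttagcgt
They lie at chr10:83408031-83408056 and chr10:83409618-83409643, both in the 3′ UTR. The first had 247 and 3117 counts in E15.5 mPGCs and the second 28 and 2852, and both were at 0 in the other 6 libraries.

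Most other leading genes were unnamed noncoding loci with many shared sequences. On the sense strand, Gm42047 took 0.124% and 0.117% of reads at E15.5, Gm42427 0.0942% and 0.129%, and Noct 0.0609% and 0.122%. Gm48362, Gm47761, Gm43305, Gm43549, Gm47939 and Gm37917 followed with means of 0.0505% to 0.0765%. Except for D10Wsu102e, at most 45.4% of the sense reads of each of these genes came from members that matched no other gene, and for Gm47939 none did, so their values cannot be read as separate loci. On the antisense strand, Gm42047, Gm47939, Gm42427 and Gm43549 took means of 0.0706% to 0.0812% in E15.5 mPGCs. Gm42047, Gm42427 and Gm43549 are thus, with D10Wsu102e and Gm47939, among the leading genes of both strands, and their antisense members were listed at under 0.0001% of reads in the E13.5 libraries.

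At E13.5 the leading genes after D10Wsu102e included several genes that were not among the leading ones of E15.5, and they are named after their values were seen. Abl2, a tyrosine kinase gene, took 0.0267% and 0.0273% of reads at E13.5 and 0.0249% and 0.0272% in E15.5 mPGCs. Eif4ebp2, a repressor of cap-dependent translation, took 0.0170% and 0.0192% in E13.5 mPGCs and 0.0369% and 0.0533% in E15.5 mPGCs. AU020206, a long noncoding RNA, took 0.0168% and 0.0304% in E13.5 mPGCs and 0.0202% and 0.0286% in E15.5 mPGCs. Eef1g and Eef2, which encode translation elongation factors, took 0.0304% and 0.0195%, and 0.0161% and 0.0140%, at E13.5. At E15.5 only 4.91% of the Eef1g reads and 49.95% of the Eef2 reads came from members on no other gene. For Abl2, Eif4ebp2 and AU020206 it was 100%. At E13.5, 1 of 13 and 4 of 30 Eef1g members and 7 of 7 and 23 of 32 Eef2 members were on no other gene. The E13.5 and E15.5 libraries overlapped for Abl2 and AU020206, and both E15.5 libraries lay above both E13.5 libraries for Eif4ebp2. Each of these genes had at most 2.2e-05% of reads in the E12.5 and SGET libraries. Gm42418, annotated as a long noncoding RNA on chromosome 17, also led at E13.5 and had reads in every library. Whether those reads came from it or from another transcript was not tested. Gm42418 took 0.0478% and 0.0243% of reads in E13.5 mPGCs, 0.0274% and 0.0237% in E12.5 mPGCs, 0.0355% and 0.0221% in E15.5 mPGCs and 0.0527% and 0.0250% in SGET mPGCLCs. None of its reads came from members on that gene alone.

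Single 5′ ends could hardly be tested. Reads were summed by their first 20 nt, and 20721 of these ends passed edgeR's default filter, of which 7271 carried a member. The tested ends held 92.8% and 93.0% of the reads on member ends for E12.5, 95.8% and 94.5% for SGET mPGCLCs, but 65.6% and 65.8% in E13.5 mPGCs and 22.1% and 43.2% in E15.5 mPGCs. At an adjusted p under 0.05, 1 member end was higher at E13.5 than at E12.5 and 0 were lower, beside 0.00483% and 0% of all ends. Without adjustment for multiple tests 387 member ends were higher and 9 lower at p under 0.05, of 603 and 186 over all ends. DESeq2 called 211 and 8, which were 2.90% and 0.11% of member ends, beside 3.05% and 0.767% of all ends. Between E13.5 and E15.5, 1 was higher and 2 were lower, beside 0.00483% and 0.0627% of all ends. Without the first E13.5 library 1 was called lower, and without the first E15.5 library 4. The unadjusted numbers were 1699 and 75, of 2681 and 805 over all ends, and DESeq2 called 31 and 34, or 0.426% and 0.468%, beside 0.671% and 3.15% of all ends. SGET mPGCLCs had 1 member end higher than E12.5 mPGCs and 0 lower, beside 0.0241% and 0% of all ends, and 1 higher than E13.5 mPGCs and 0 lower, beside 0.00965% and 0%. Unadjusted, 19 ends were higher and 29 lower than in E12.5 mPGCs, and 22 higher and 445 lower than in E13.5 mPGCs. Over all ends these numbers were 290 and 384, and 332 and 854. DESeq2 called 25 higher and 14 lower than in E12.5 mPGCs, or 0.344% and 0.193%, beside 2% and 1.24% of all ends. Against E13.5 mPGCs it called 20 and 217, or 0.275% and 2.98%, beside 1.12% and 2.56% of all ends. Since the filter used all 8 libraries, an end could pass on its E15.5 reads alone. With only the 2 groups compared, 1214 member ends passed for E13.5 over E12.5 and 7063 for E15.5 over E13.5. For SGET mPGCLCs, 576 passed beside E12.5 mPGCs and 1037 beside E13.5 mPGCs. Except for E15.5 over E13.5, the member percents thus count many ends with few or no reads in either group. How far the filter set the direction of the E15.5 counts, 1699 and 75, was not tested.

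The called ends were 5 in all, and 4 of them are described because they are so few, after their values were seen. The most abundant members of those not shown above follow.
higher at E13.5: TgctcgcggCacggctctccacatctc
higher at E15.5: TaatttcctAagttcggcgggtccca
The end higher at E13.5 had 0 counts in both E12.5 libraries, 1486 and 2589 in E13.5 mPGCs and 6138 and 13158 in E15.5 mPGCs (log2 change 13.81 ± 2.84, edgeR adjusted p = 0.0238). The end higher at E15.5 had 0 counts in both E13.5 libraries and 2630 and 11441 in E15.5 mPGCs (edgeR adjusted p = 0.0271). Since 1 group was at 0, neither fitted change is a bound on the fold. The members shown for these ends held only part of the reads, 318 and 329 counts in E13.5 mPGCs for the first and 113 and 557 in E15.5 mPGCs for the second. The lower end described here was that of Rny1, which had 11132 and 42301 counts in E13.5 mPGCs and 316 and 525 in E15.5 mPGCs, a log2 change of -6.16 ± 0.94 (edgeR adjusted p = 1.4e-06). The end higher in SGET mPGCLCs was that of the SGET leading member, with 21983 and 6258 counts there, 52 and 109 in E12.5 mPGCs and 5 and 60 in E13.5 mPGCs. Its log2 difference was 7.55 ± 1.64 from E12.5 (edgeR adjusted p = 0.0278) and 9.66 ± 1.79 from E13.5 (edgeR adjusted p = 0.00131).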

How the data were processed

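Small RNA of 8 libraries, 2 for each of 4 groups, was sequenced. Per the submitters' processing notes the authors used cutadapt 3.2 and STAR 2.5.3a with GRCm38. They deposited raw counts of each distinct mapped sequence per library, not normalized. They merged runs of a library, trimmed the random adapter ends, which were not kept as molecular identifiers, and mapped with up to 2 mismatches and random placement of multimappers. Groups came from the sample titles.

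From the counts, members were taken with Python 3.11.15, numpy 2.4.6 and pandas 2.3.3. Shares are of all mapping reads, with 95% Wilson intervals, and a count of 0 was bounded by 3 counts. Counts of 56 classes and of 5′ ends (first 20 nt, edgeR's default filter) were fitted with edgeR 4.0.16 in R 4.3.3 (quasi-likelihood test, all 8 libraries, library size of all mapping reads), and with DESeq2 1.42.0 as an alternative. Scripts were tested on simulated data. The p-values of these fits measure the spread between the 2 libraries of a group, with an estimate shared over all groups. A comparison thus also rests on the spread within the groups not compared. Per-library values were compared by two-sided exact permutation tests with scipy 1.17.1. Transcripts were GENCODE M21 (GRCm38), and a member matching several classes counted in the first of rRNA, mitochondrial tRNA, snoRNA, other small RNA, protein-coding, long noncoding RNA, pseudogene and antisense. Sequences of chromosome 18 are not named.

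Named sequences were the 5 leading members of E15.5 by mean share, given at least 10 counts in each library, the 2 highest in each other group, 3 leading 5′ ends of E15.5 holding both lengths, and, for genes, the 10 leading sense and 5 leading antisense genes at E15.5. Windows of the genome, part of the same rule, were not analysed here. The members and lists were chosen with earlier results of these data known. Of the genes leading at E13.5 and the called 5′ ends, 1 each is not reported here.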

Additional observations from a re-analysis of the deposited data

How the results depend on the processing

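The rise of both member lengths from E12.5 to E13.5 and their lower level in SGET mPGCLCs than at E13.5 passed under every fit run. With the library size of 24 to 33 nt reads outside miRNAs, the 27-nt step from E13.5 to E15.5 was 0.52 and no longer passed. Without the miRNA exclusion the 26-nt difference of SGET mPGCLCs from E12.5 was -0.71, the opposite direction. Leaving out single libraries it ranged from -0.21 to 0.42, and for 27 nt from -0.10 to 0.59.

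Member 5′ ends called are given in the order E13.5 over E12.5, E15.5 over E13.5, SGET over E12.5 and SGET over E13.5. DESeq2 called 211, 31, 25 and 20 higher and 8, 34, 14 and 217 lower, beside 3.05%, 0.671%, 2% and 1.12% of all ends higher and 0.767%, 3.15%, 1.24% and 2.56% lower. TMM called 0 in all of them. A 24-nt key gave 4, 1, 2 and 1 higher and 0, 2, 0 and 3 lower. Without the default filter there were 0 higher in each and 0, 1, 0 and 0 lower, and with only the groups compared 0, 2, 0 and 0 higher and 0, 1, 0 and 0 lower. Leaving out single libraries gave 0 to 3, 0 to 1, 0 to 0 and 0 to 1 higher, and 0 to 0, 1 to 4, 0 to 0 and 0 to 3 lower.

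Replicate numbers were not taken to pair these samples. The mPGC replicates came from different litters, and no label ties a number to a batch. The second E12.5 and second E13.5 libraries did hold low-count members that were abundant in the second E15.5 library, as given above. Deviations of same-numbered libraries correlated between -0.427 and 0.803 over the classes and between -0.108 and 0.225 over the 5′ ends. With the replicate block 1, 2, 1 and 1 ends were higher and 0, 1, 0 and 3 lower, the class changes from E12.5 to E13.5 were 2.70 and 2.79, and the distinct-member ratio of E13.5 over E12.5 was 6.54.

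At a minimum of 10 counts, chosen after seeing the data, the distinct-member ratio of SGET mPGCLCs was 0.325 to E12.5 and 0.0343 to E13.5. A at position 10 in E13.5 minus E12.5 was 6.07 points weighted by reads and 0.96 at the minimum of 10 counts, and SGET minus E13.5 was -12.7 weighted by reads. The 26-nt form in E13.5 minus E12.5 was -8.44 at 2 counts, -30.9 weighted by reads and -8.92 at 10 counts. In SGET minus E12.5 it was 8.57 weighted by reads and -1.52, the opposite direction, at 10 counts, and in SGET minus E13.5 39.5 weighted by reads. For E15.5 minus E13.5 it ranged from -1.76 to 1.03 when single libraries were left out. The cause of these changes was not tested. Of the 7271 member ends tested, 514 had reads in both E12.5 libraries and 4245 in both E15.5 libraries.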
